A study of Mus musculus with 84 samples.

Results

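Of the 84 single airway sensory neurons of the series, 26 were compared: 15 with a high level of the tachykinin gene Tac1 and 11 with a low one. They were selected on their own counts. A neuron entered when it had at least 5000000 counts, at least 5000 genes at 10 CPM (a gene's counts per 1000000 counts of the neuron) and Prdm12 below 10 CPM. Prdm12 encodes a transcription factor of the neural crest-derived jugular lineage, and its near absence was used to keep neurons of the nodose type. Of 72 neurons with enough counts, 38 had enough genes and 32 of those had Prdm12 below the limit. Tac1 was at 100 CPM or more in 15 of the 32 (the Tac1-high neurons), below 10 CPM in 11 (the Tac1-low neurons) and between these limits in 6, which were left out of the comparison.

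All neurons came from the vagal ganglia of C57BL/6 mice with no treatment named, and all had taken up the lipophilic tracer DiI (2%) carried back along axons from the lungs and airways. Each was picked by itself and its mRNA was amplified before sequencing. Every compared neuron is therefore a traced cell, so neurons of these ganglia that serve other organs are not represented, and RNA taken up with a cell is part of its counts. The labels give 1 group and name no animal, so neurons were not treated as replicates of a condition, and no p-value or standard error is given. Differences are stated as shares of neurons, levels with their spread over neurons, and fixed rules of size.

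Tac1 encodes the precursor of substance P and neurokinin A, the tachykinin peptides that sensory nerve endings release. In the airways these peptides act on neurokinin receptors and are known for neurogenic inflammation, mucus secretion and smooth muscle contraction. The vagal sensory ganglion of the mouse is a fused structure in which nodose neurons, from epibranchial placodes, lie beside jugular neurons from the neural crest, and both send axons to the lung.

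The promoters of Tac1, which set the classes, and of the genes with the largest level difference in each direction are shown. Gm765 and Celf6 were picked by their differences in the compared neurons. Each stretch holds the 250 bases before the transcription start in RefSeq (GRCm38.p6) nearest to the gene's start in GENCODE, read 5′ to 3′ on the gene's strand. Capitals mark matches, on either strand, to the cyclic AMP response element TGACGTCA, its half-site CGTCA, the E-box CAGCTG or the RUNX core TGTGGT. The stretches are chr6:7554811-7555060 (plus strand) for Tac1, chr6:98342755-98343004 (minus strand) for Gm765 and chr9:59578087-59578336 (plus strand) for Celf6.
Tac1: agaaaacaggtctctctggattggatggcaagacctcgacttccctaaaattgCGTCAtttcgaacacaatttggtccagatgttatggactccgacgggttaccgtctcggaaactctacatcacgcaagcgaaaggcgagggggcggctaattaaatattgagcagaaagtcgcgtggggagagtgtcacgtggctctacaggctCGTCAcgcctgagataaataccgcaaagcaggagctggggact
Gm765: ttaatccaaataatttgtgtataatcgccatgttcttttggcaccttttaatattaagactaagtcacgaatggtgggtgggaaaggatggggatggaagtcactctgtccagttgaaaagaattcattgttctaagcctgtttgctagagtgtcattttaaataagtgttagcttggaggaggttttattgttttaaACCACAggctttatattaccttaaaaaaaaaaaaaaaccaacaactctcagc
Celf6: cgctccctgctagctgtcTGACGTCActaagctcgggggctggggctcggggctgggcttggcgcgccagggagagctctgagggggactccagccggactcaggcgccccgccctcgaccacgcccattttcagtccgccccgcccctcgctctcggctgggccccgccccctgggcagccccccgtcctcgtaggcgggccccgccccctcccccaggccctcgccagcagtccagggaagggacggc
Counted from 1 at the 5′ end of each stretch, Tac1 held the half-site from bases 54 and 208, Gm765 held the RUNX core from base 199, and Celf6 held the full element from base 19, where it overlaps 2 half-sites. Of 32851 mouse promoters of this length, 1.55% held the full element, 17.8% the half-site, 13% the E-box and 14% the RUNX core. These matches describe the letters only. The RefSeq starts lay 182, 0 and 420 bases from the gene starts of GENCODE for Tac1, Gm765 and Celf6.

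Tac1 chose the classes, so its values are given as a description. Among the Tac1-high neurons it ran from 122 CPM (neuron AM291) through a median of 1395 to 7773 CPM (AM003). Among the Tac1-low neurons it ran from 0 through a median of 0.542 to 7.61 CPM (AM022). The neuron nearest below the upper limit stood at 73.3 CPM and the nearest above the lower limit at 10.01 CPM. The gap at the upper limit was thus wider than that at the lower one. The gene lies at chr6:7554879-7565834 on the plus strand (GRCm38).

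**Figure D1:**
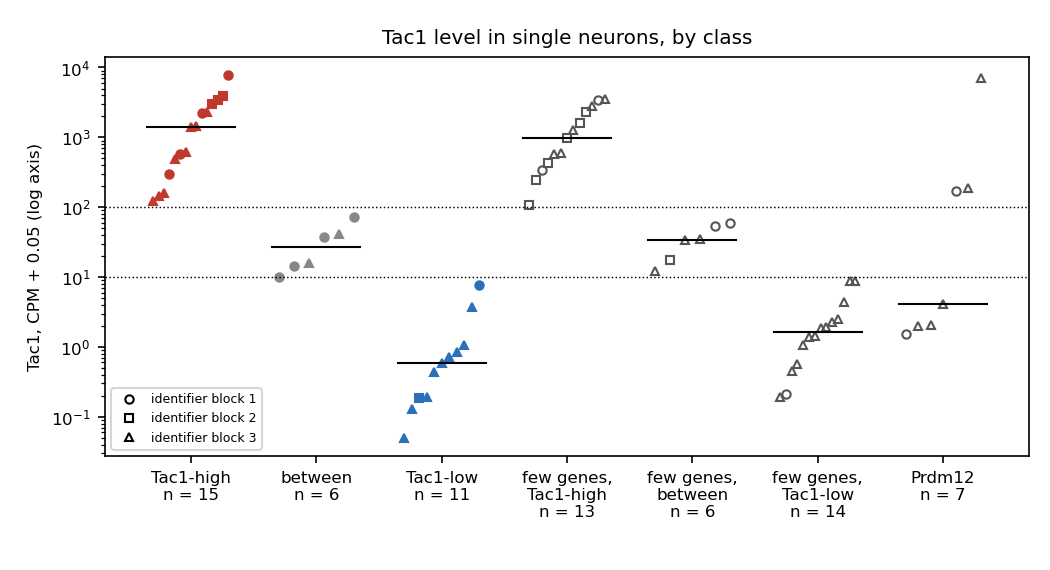
Tac1 level (CPM plus 0.05, log axis) of each neuron with enough counts, by class, with 1 point per neuron, the marker shape giving the identifier block and a bar at the class median. Dotted lines stand at 10 and 100 CPM; the Tac1-high neurons spread from 122 to 7773 CPM.

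Total counts and gene number were somewhat higher in the Tac1-high neurons. Total counts had a median of 15140735 (10824365 to 20063519) in Tac1-high and 12917109 (10274511 to 15033620) in Tac1-low neurons, and detected genes a median of 8290 (5885 to 8870) against 7799 (5231 to 8498). Mitochondrial genes took a median of 1.66% and 2.23% of counts. The neuron numbers in the labels fell into 3 runs separated by gaps of more than 30, here called identifier blocks; nothing in the labels says that they are batches. The Tac1-high neurons numbered 4, 3 and 8 in blocks 1, 2 and 3, and the Tac1-low neurons 1, 1 and 9. The values within block 3 are therefore given for the fibre lists and for most genes past the level rule that are described singly. The other genes past that rule enter only the medians over the rule within block 3. The part of gene number in the differences was not tested.

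The nodose type of both classes was checked on genes that the choice had not used. Hoxb5, a homeobox gene of the nodose lineage, was at 10 CPM or more in 15 of 15 Tac1-high and 10 of 11 Tac1-low neurons, with medians of 213 and 206 CPM. Ntrk2, the receptor of brain-derived neurotrophic factor, was detected in all 26, with medians of 252.7 and 291.9 CPM. The ATP-gated channel gene P2rx2, which nodose neurons express and jugular neurons lack, was detected in 10 of 15 and 11 of 11. Phox2a, another placodal gene, was at 10 CPM or more in 0 of the 26, with a highest value of 7.81 CPM, so 1 of the defining genes was near absent in both classes. Hoxb4 was detected in 14 of 15 and 11 of 11 (medians 92.0 and 118 CPM), and Hoxc4 in 0 of 15 and 1 of 11. Of the jugular genes that were not used, Runx1 was detected in 15 of 15 and 10 of 11 neurons and Prrxl1 in 9 of 15 and 3 of 11.

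Across 10079 counted genes (10 CPM or more in at least 5 of the 26 neurons, Tac1 left out), most genes had like levels in both classes. The level of a gene in a class is its mean log2(CPM + 10), a scale that understates the change of genes with low values. The level difference, Tac1-high minus Tac1-low, had a median of 0.08 and quartiles of -0.15 and 0.31, and 59.5% of the genes lay above 0. By the rule on shares, at least 50 percentage points between the shares of neurons at 10 CPM or more, 86 genes were higher in Tac1-high neurons (0.853% of those counted) and 14 were lower (0.139%). By the rule on levels, a difference of at least 2 (4-fold), 24 were higher (0.238%) and 6 lower (0.0595%). Both rules named 13 genes as higher (0.129%) and 2 as lower (0.0198%). For no counted gene did all Tac1-high neurons lie above all Tac1-low neurons, nor below them, so every difference below has overlapping classes.

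**Figure D2:**
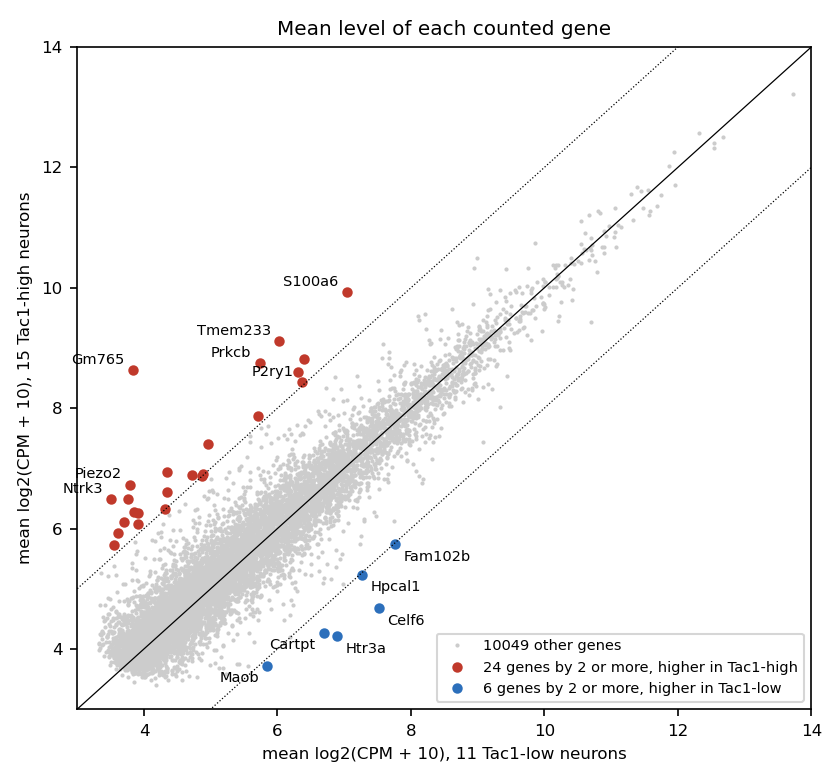
Mean log2(CPM + 10) of each counted gene in the 11 Tac1-low neurons (x) and the 15 Tac1-high neurons (y), with 1 point per gene. The solid line marks equal levels and the dotted lines a difference of 2; 24 genes lie past the upper line (red) and 6 past the lower one (blue).

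Piezo2 and Ntrk3 were detected in most Tac1-high and few Tac1-low neurons. They were the only genes past a rule among 8 counted mechanical and acid channel genes and 12 counted genes of large fibres. Of all counted genes 1.14% passed either rule. Piezo2 encodes the mechanically gated channel of touch and of lung stretch. It was at 10 CPM or more in 11 of 15 Tac1-high neurons (73.3%, exact Clopper-Pearson 95% interval 44.9% to 92.2%) and in 1 of 11 Tac1-low neurons (9.09%, 0.230% to 41.3%); these intervals cover counting error only. Its values ran from 0 through a median of 191 to 600 CPM in Tac1-high and from 0 through 0.253 to 156 CPM in Tac1-low neurons. All Tac1-low neurons but AM249 were under 10 CPM, and 4 Tac1-high neurons were too. The level was 6.73 ± 2.04 in Tac1-high against 3.79 ± 1.21 in Tac1-low neurons (SD over neurons, n = 15 and 11), a difference of 2.94, and of 2.32 within block 3.

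Ntrk3 encodes TrkC, the receptor of neurotrophin-3, known from proprioceptors and touch neurons. Its values ran from 0 through a median of 118 to 533 CPM in the Tac1-high and from 0 through 0.155 to 18.2 CPM in the Tac1-low neurons. It was detected in 11 of 15 and 1 of 11, and its level difference was 2.98, and 2.04 within block 3. The gene lies at chr7:78175959-78738012 on the minus strand. The 11 Tac1-high neurons with Piezo2 at 10 CPM or more were the 11 with Ntrk3 at that level. The other 4 (AM019, AM246, AM267 and AM291) were under 10 CPM for both. Some lay near the limit: AM291 had Ntrk3 at 9.75 CPM, and AM019 and AM267 had Piezo2 at 6.43 and 5.28 CPM. No Tac1-low neuron had both: AM249 had Piezo2 alone and AM281 Ntrk3 alone. The match did not hold in other neurons. Of the 6 neurons between, 0 had both, 2 had Piezo2 alone and 1 had Ntrk3 alone. Of the 7 neurons with Prdm12 at 10 CPM or more, 5 had both and 2 had Piezo2 alone.

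The 4 Tac1-high neurons without Piezo2 were not alike. AM019, AM246 and AM267 had P2ry1 at 314.7, 284.4 and 294.6 CPM, within the range of the Piezo2 neurons. Their S100a6 stood at 1717, 1646 and 2156 CPM, the last of these the highest of the class. AM291, which had the lowest Tac1 of the class, had P2ry1 at 1.78 and S100a6 at 3.56 CPM, each the lowest value among Tac1-high neurons. It carried the serotonin receptor gene Htr3a at 1454 CPM, P2rx2 at 262 CPM and Celf6 at 571 CPM, each the highest of the class. Of the 13 genes higher by both rules, AM291 had 1 at 10 CPM or more. The median Tac1-high neuron had 13 (range 1 to 13), the median Tac1-low neuron 2 (0 to 7) and the median neuron between 3 (1 to 4). The 13 genes were chosen in the same Tac1-high and Tac1-low neurons, so the medians of these classes are a description.

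**Figure D3:**
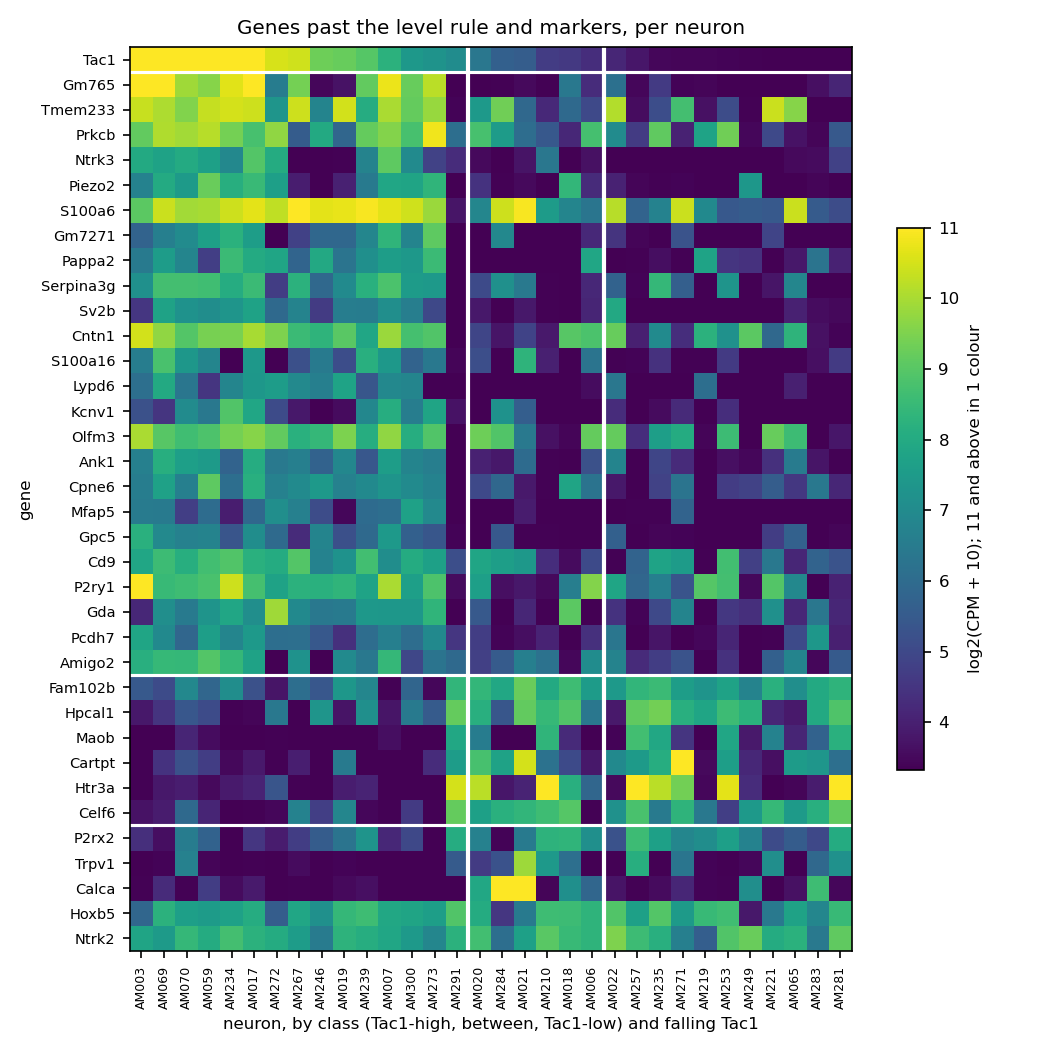
Level, as log2(CPM + 10), of Tac1, the 24 genes higher and 6 lower by the level rule and 5 markers (rows) in each of the 32 neurons (columns, white lines parting Tac1-high, between and Tac1-low, each by falling Tac1). The column of AM291 is mostly dark over the higher genes and bright over the lower ones; AM022 is the brightest Tac1-low column for several of the higher genes.

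P2ry1 encodes an ADP receptor coupled to Gq. It ran from 1.78 through a median of 354 to 1998 CPM in Tac1-high and from 0.156 through 89.6 to 493 CPM in Tac1-low neurons. Without AM291 the lowest Tac1-high value was 191 CPM, and the highest Tac1-low value still exceeded it. The level difference was 2.06, and 1.66 within block 3. Gm37035 overlaps P2ry1, and since the strand setting of the counting is not given, reads of the overlapping part cannot be assigned with certainty. Among the 8 counted ATP, ADP and adenosine receptor genes P2ry1 was the only one past the level rule, beside 0.238% of all counted genes higher by that rule. The adenosine A1 receptor gene Adora1 had a difference of 1.14 and P2rx2 one of -1.59.

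Gm765, a predicted gene at chr6:98235708-98342754 on the minus strand, had the largest difference of all counted genes. Its values ran from 0.170 through a median of 777 to 2402 CPM in Tac1-high and from 0 through 0.660 to 60.9 CPM in Tac1-low neurons. It was detected in 12 of 15 and 2 of 11, with levels of 8.63 ± 2.90 and 3.83 ± 0.87 (SD, n = 15 and 11) and a difference of 4.80, or 4.12 within block 3. Gm765 and the pseudogene Gm7271 (13 of 15 against 3 of 11, difference 2.72, within block 3 2.31) fell outside the rule for named genes, which leaves out predicted genes, and were chosen after their values were seen, although Gm765 was also among the genes most like Tac1. Gm32592 overlaps Gm765.

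Tmem233, a membrane protein gene, ran from 0.593 through a median of 1035 to 1437 CPM in Tac1-high and from 0 through 24.6 to 1332 CPM in Tac1-low neurons. The Tac1-low neurons spanned the whole range, with 6 of 11 at 10 CPM or more, while 14 of 15 Tac1-high neurons were. Prkcb, which encodes protein kinase C beta, was detected in all 15 Tac1-high neurons (37.4 to 1810 CPM, median 574) and in 7 of 11 Tac1-low neurons (0.782 to 643 CPM, median 22.6). S100a6, a small calcium-binding protein gene, was detected in all 11 Tac1-low neurons (24.5 to 1328 CPM, median 44.6) and 14 of 15 Tac1-high neurons (3.56 to 2156 CPM, median 1355). For these 3 genes the level difference was 3.08, 3.01 and 2.89, and within block 3 3.01, 2.63 and 3.35, so they differed in level more than in detection. Without identifier block 3, which leaves 7 Tac1-high and 2 Tac1-low neurons, the difference of S100a6 was -0.053.

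Among genes of excitability and release, Kcnv1, a modifier subunit of voltage-gated potassium channels, was detected in 11 of 15 Tac1-high neurons (0.0660 to 475 CPM, median 74.6) and in 0 of 11 Tac1-low neurons, where the highest value was 9.99 CPM. AM253, AM022 and AM271 stood just under 10 CPM, at 9.99, 9.71 and 8.69 CPM, so the 0 rests on where the detection limit stands. A count of 0 of 11 allows a share of up to 27.3% by the limit of 3 counts, which covers counting error only. The level difference of Kcnv1 was 2.31, and 2.20 within block 3. In the neurons left out for too few genes, described below, it was 0.64. Kcnh1, an EAG channel gene, was detected in 8 of 15 and 0 of 11, but its level difference was 0.89, below the level rule. Of 29 counted genes of potassium and related channels these 2 passed the share rule, beside 0.853% of all counted genes. Kcnv1 passed the level rule, beside 0.238%. The list's median level difference was 0.36 beside 0.08 for all counted genes, and 0.32 beside 0.01 within block 3. In the neurons left out for too few genes this median was 0.125 beside 0.087, and Kcnh1 differed by -0.089 there. Sv2b, a synaptic vesicle glycoprotein gene, was detected in 14 of 15 Tac1-high neurons (median 87.9 CPM) and 1 of 11 Tac1-low neurons (AM022, at 236.9 CPM, above every Tac1-high neuron). Its level difference was 2.43, and 2.40 within block 3. Sv2b was the only 1 of 22 counted release genes past a rule, and 1500012K07Rik overlaps it. Past either rule in either direction were 1.14% of all counted genes, and none of 12 sodium channel and 12 calcium channel genes.

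Of 16 listed genes of large myelinated fibres 12 were counted, and only Ntrk3 passed a rule (beside 1.14% of all counted genes). All 12 had a level difference above 0 (beside 59.5% of all counted genes), with a median of 0.82 beside 0.08. Within block 3, 11 of the 12 lay above 0 (beside 51.2%), with a median of 0.88. Neurons with Prdm12 below 10 CPM left out for having fewer than 5000 genes are called the few-gene neurons (13 Tac1-high and 14 Tac1-low). In these 8 of the 12 lay above 0 (66.7% beside 59.5%), with a median of 0.31. The heavy neurofilament gene Nefh ran from 508 through a median of 1334 to 2201 CPM in Tac1-high and from 194 through 510 to 910 CPM in Tac1-low neurons, a difference of 1.38, and 1.49 within block 3. The channel genes Kcna2, Kcnc1 and Scn1a differed by 1.17, 1.02 and 1.01, the medium neurofilament gene Nefm by 0.81 and the light one, Nefl, by 0.17. Kcna1, Scn8a and the acid-sensing channel gene Asic1 differed by 0.83, 0.80 and 0.68. Of 7 counted genes of small unmyelinated fibres 2 lay above 0, with a median of -0.21 and none past a rule. Within block 3, 1 of the 7 lay above 0, with a median of -0.555. In the few-gene neurons all 7 lay above 0, with a median of 0.97, so the order of these 2 lists turned there. In the compared neurons Prph, the peripherin gene, had medians of 2682 and 3307 CPM, and the sodium channel gene Scn10a medians of 102 and 163 CPM. All of these but Ntrk3 and Prph were chosen for naming after their values were seen.

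The other genes past the level rule in the same direction were adhesion, matrix, signalling and enzyme genes, with differences from 2.00 to 2.59. Within block 3 the 24 genes higher by this rule had a median difference of 2.21. Adhesion and membrane genes were Cntn1 (contactin 1), Pcdh7 (a protocadherin), Amigo2, Cd9 (a tetraspanin), Lypd6, Gpc5 (a glypican) and Ank1 (an ankyrin of the membrane skeleton). Pcdh7 was detected in 15 of 15 Tac1-high neurons (10.8 to 218 CPM, median 59.9) and 3 of 11 Tac1-low neurons (0 to 156 CPM, median 3.46). Cntn1 ran from 0.0848 through 517 to 1402 CPM in Tac1-high and from 0.432 through 118 to 581 CPM in Tac1-low neurons. Lypd6 was detected in 13 of 15 and 2 of 11. Secreted and matrix genes were Pappa2, a protease of insulin-like growth factor binding proteins (14 of 15 against 4 of 11), the serpin Serpina3g (14 against 5), Mfap5, a microfibril protein (12 against 1), and Olfm3, an olfactomedin (14 against 6). The calcium-binding genes S100a16 (12 against 3) and Cpne6, a copine (14 against 7), and Gda, guanine deaminase (13 against 7), completed the 24. Pappa2, Ank1, Gpc5, Pcdh7, Cd9 and Amigo2 each overlap another annotated gene, as do Hoxb5, Phox2a, Runx1, Prdm12, Gabra5, Grm8, Adora1, Nefl, Nefm, Nmb, Penk and Pcsk2.

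Receptor genes past the share rule alone were detected more often in Tac1-high neurons, at low levels except for Tnfrsf1a. Of the 86 genes higher by that rule 85 had a level difference above 0 within block 3, with a median of 0.91 beside 0.01 for all counted genes. The block 3 neurons were among those that chose the 86 genes, so this is a description. Htr1d, a serotonin receptor of the inhibitory type, was detected in 9 of 15 against 1 of 11 (medians 11.6 and 0 CPM). The GABA receptor subunit gene Gabra5 was detected in 10 against 1 (medians 21.1 and 0.0844 CPM), and the metabotropic glutamate receptor gene Grm8 in 8 against 0. Of 17 counted GABA, glycine and glutamate receptor genes Gabra5 and Grm8 were the ones past a rule, beside 1.14% of all counted genes. Of the 17, 14 had a level difference above 0 (82.4%, beside 59.5% of all counted genes). Within block 3 it was 11 of 17 (64.7%, beside 51.2%). Tnfrsf1a, which encodes the tumour necrosis factor receptor, was detected in 14 of 15 (2.44 to 141 CPM, median 58.8) and 4 of 11 (0 to 116 CPM, median 0.220), and Tgfbr1 in 9 against 1. Cdh1, the E-cadherin gene, was detected in 12 against 2, with medians of 27.6 and 0.143 CPM. Cdh1 was on the list of airway epithelium. Of the same list Epcam and Krt18 were at 0 in all 26 neurons. Krt8 and Scgb1a1 had highest values of 0.066 CPM (AM246) and 4.635 CPM (AM003), each in a Tac1-high neuron. The part of epithelial RNA in the Cdh1 values was not tested.

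**Figure D4:**
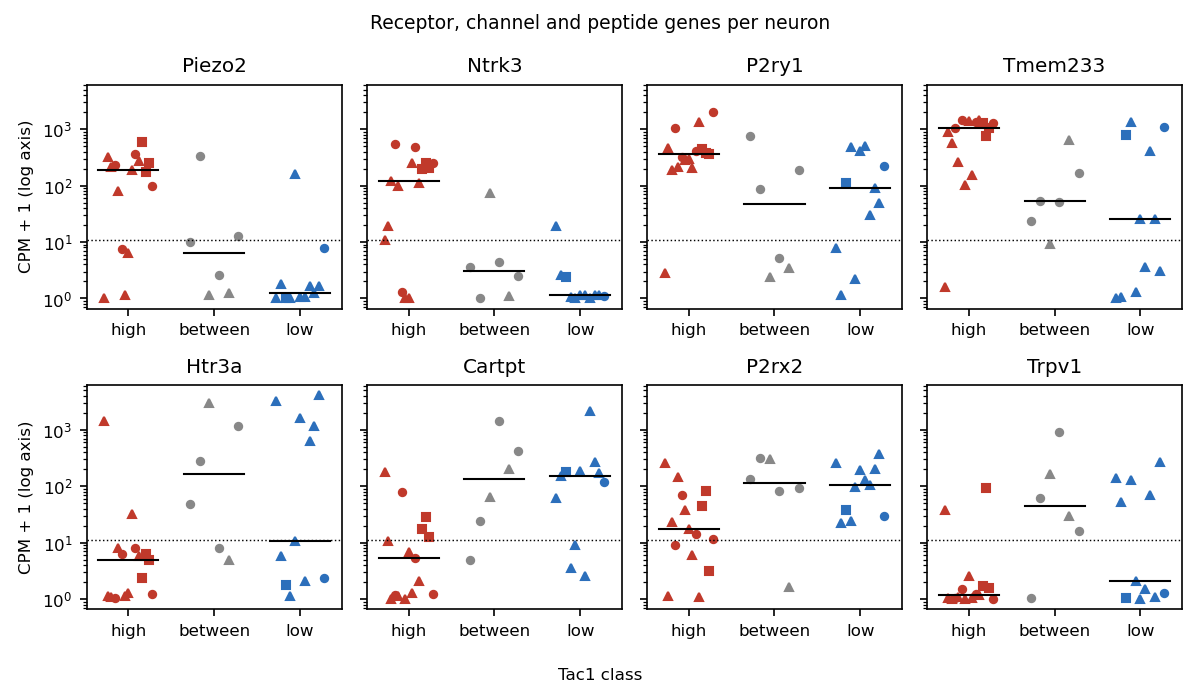
CPM plus 1 (log axis) of 8 receptor, channel and peptide genes in each Tac1-high, between and Tac1-low neuron, with 1 point per neuron, the shape giving the identifier block (circle 1, square 2, triangle 3), a bar at the class median and a dotted line at 10 CPM. Piezo2 and Ntrk3 parted the Tac1-high class into 11 neurons above the line and 4 below, and Htr3a parted the Tac1-low class into 5 above and 6 below.

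Fewer genes were lower than higher in Tac1-high neurons over all 26, but within block 3 the share rule gave 75 higher and 102 lower. Celf6, which encodes an RNA-binding protein of splicing, was detected in 6 of 15 Tac1-high neurons (0.185 to 571 CPM, median 5.03) and in all 11 Tac1-low neurons (16.9 to 558 CPM, median 170). The level difference was -2.84, and -2.69 within block 3. Among Tac1-high neurons Celf6 was at 10 CPM or more in all 4 without Piezo2 and in 2 of the 11 with it (AM070 and AM300). Maob, monoamine oxidase B, was detected in 1 of 15 (AM291, at 231.8 CPM) and 7 of 11 (0 to 397 CPM, median 43.8), a difference of -2.12, and -2.40 within block 3. Celf6 and Maob were the 2 genes past both rules.

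Htr3a encodes the subunit of the serotonin-gated channel that nodose C-fibres are known for. Its values ran from 0.0556 through a median of 4.04 to 1454 CPM in Tac1-high and from 0.140 through 9.83 to 4054 CPM in Tac1-low neurons. The medians lay close together, and the Tac1-low class was split: 5 neurons (AM235, AM253, AM257, AM271 and AM281) stood between 643 and 4054 CPM and the other 6 stood under 10 CPM. The level difference was -2.68, and -3.004 within block 3, but 0.24 without block 3, where only 2 Tac1-low neurons are left. The same 5 neurons had Htr3b, the other channel subunit, at 10 CPM or more, and 3 of them had Trpv1, the capsaicin receptor gene. Celf6 was detected in these 5 and also in the 6 without Htr3a.

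Trpv1 was detected in 2 of 15 Tac1-high neurons (0 to 94.0 CPM, median 0.185) and 5 of 11 Tac1-low neurons (0 to 269 CPM, median 1.07), a difference of -1.26 that passed neither rule. Trpa1, the irritant receptor gene, was detected in 3 of 15 and 2 of 11. P2rx2 ran from 0.0924 through 16.5 to 262 CPM in Tac1-high and from 21.7 through 106 to 377 CPM in Tac1-low neurons, a difference of -1.59, while P2rx3, its partner subunit, was detected in 7 of 15 and 7 of 11 with a difference of -0.14. Ssrp1 overlaps P2rx3. Trpv1, Trpa1, Htr3b and P2rx3 were chosen for naming after their values were seen. The last 2 genes lower by the level rule were Hpcal1, a neuronal calcium sensor gene (medians 24.003 and 279 CPM, difference -2.04, within block 3 -1.93), and Fam102b (medians 47.3 and 203 CPM, difference -2.02, within block 3 -2.01). Without block 3 the difference of Hpcal1 was 0.40.

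Of 7 counted neuropeptide genes other than Tac1, only Cartpt, the precursor of CART peptides, passed a size rule (beside 1.14% of all counted genes). It was lower in Tac1-high neurons. It was detected in 5 of 15 Tac1-high neurons (0 to 180 CPM, median 4.44) and 8 of 11 Tac1-low neurons (1.57 to 2154 CPM, median 152), a difference of -2.42, and -2.48 within block 3. Calca, the precursor of calcitonin gene-related peptide, which accompanies substance P in many sensory neurons, was detected in 1 of 15 Tac1-high neurons (0.0556 to 16.2 CPM, median 0.363) and 2 of 11 Tac1-low neurons (0.140 to 379 CPM, median 1.69). Calcb was detected in 0 of 15, which allows a share of up to 20% by the same limit, and in 2 of 11. Adcyap1, the precursor of PACAP, was detected in 10 of 15 and 10 of 11, and Nmb, neuromedin B, in 12 of 15 and 9 of 11. Very high values of 1 peptide belonged to single neurons: Nts, neurotensin, reached 17470 CPM in the Tac1-high neuron AM246 and 3532 CPM in a Tac1-low neuron, and Penk, proenkephalin, reached 2517 CPM in the Tac1-low neuron AM249. Npy was detected in 3 of 15 and 0 of 11. The genes of this paragraph other than Cartpt were chosen after their values were seen.

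The enzymes that cut and amidate peptides and the proteins of dense-core vesicles were present in both classes. Of 19 such genes 16 were counted, none passed a rule (beside 1.14% of all counted genes), and the median level difference was 0.15. Cpe, carboxypeptidase E, ran from 213.9 through a median of 1881 to 6095 CPM in Tac1-high and from 305 through 890 to 5440 CPM in Tac1-low neurons, a difference of 0.89. Pcsk2, prohormone convertase 2, had medians of 108 and 135 CPM. Scg2, secretogranin II, chosen after its values were seen, had medians of 137 and 558 CPM and a difference of -1.64. Chgb and Scg5, chosen in the same way, differed by 1.08 and -0.52. Of the other tachykinin genes, Tac2 was at 0 in all 26 neurons, and Tac4, Tacr1 and Tacr2 were detected in none, with highest values of 2.27, 0.0824 and 0.839 CPM. Tacr3, the neurokinin 3 receptor gene, was detected in 6 of 15 Tac1-high neurons (highest 109 CPM) and 2 of 11 Tac1-low neurons (highest 151 CPM), a difference of 0.62.

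Slc17a6, the vesicular glutamate transporter gene of excitatory sensory neurons, was detected in all 26 neurons, with medians of 491 CPM in Tac1-high and 546.5 CPM in Tac1-low neurons and a difference of -0.09. Nos1, neuronal nitric oxide synthase, was detected in 13 of 15 and 10 of 11, with medians of 81.9 and 67.2 CPM. Chrnb2, a nicotinic receptor subunit gene, was detected in 13 of 15 and 7 of 11 (difference 0.75), and Chrnb3, another, in 4 of 15 and 4 of 11 (difference -0.77). Ptger4, a prostaglandin E2 receptor gene, was detected in 14 of 15 and 8 of 11, with medians of 97.3 and 84.9 CPM and overlapping ranges of 2.30 to 741 and 0.391 to 328 CPM. The inhibitory receptor genes Gabbr1 (medians 348 and 489 CPM) and Cnr1 (medians 180 and 271.9 CPM) were detected in every neuron of both classes. These differences, all under 1 in size, fell short of both rules.

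Beside 1.14% of all counted genes, 0 of 24 transcription factor genes, 0 of 27 axon guidance and adhesion genes, 0 of 12 receptor genes of inflammatory mediators and 0 of 7 inhibitory receptor genes passed either rule. At these list sizes a count of 0 does not part a list from the background. The factors Klf7 and Mafg were detected in all 26 neurons, with differences of -0.60 and -0.36. Cckar, the cholecystokinin A receptor gene, was detected in 10 of 15 Tac1-high and 4 of 11 Tac1-low neurons, with medians of 45.9 and 1.32 CPM and a difference of 0.84. The neuropeptide Y receptor gene Npy2r, chosen after its values were seen, was detected in 10 of 15 and 5 of 11, with a difference of -0.23. The sodium channel gene Scn7a, one of the most widely detected of its list, had medians of 867.9 and 254.6 CPM and a difference of 1.36.

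Genes of other cells were present in both classes. The 7 genes of satellite glia summed to a median of 608 CPM (69.6 to 10185) in Tac1-high and 1432 CPM (113 to 4796) in Tac1-low neurons, and that of 7 Schwann cell genes 824 CPM (60.4 to 1313) and 520 CPM (51.6 to 1161). Of the 10 counted genes of these lists 0 passed a rule, beside 1.14% of all. Sums of endothelial and leukocyte genes had medians of 0.10 and 0.11 CPM in Tac1-high and of 7.17 and 4.48 CPM in Tac1-low neurons. Immediate early genes, which stress and dissociation induce, summed to 944 CPM (682 to 6544) and 2179 CPM (187 to 3979), and injury genes to 2215 and 2396 CPM. Egr1 had medians of 347 and 751 CPM (difference -0.76), Fos of 536 and 684 CPM (-0.11), and the injury factor Atf3, detected in all 26 neurons, of 565 and 718 CPM (-0.47). The part of these cells and genes in the differences was not tested. Pan-neuronal genes summed to 18053 and 18807 CPM.

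The genes whose CPM followed Tac1 most closely over the 32 neurons were Mfap5 (Spearman's rho 0.74), Kank4, Plpp4, Gm765 and Nwd2 (each 0.73), Tmem56 and Cntnap1 (each 0.72), Tm2d1 and Ndp (each 0.71) and Prkcb (0.69). The measure ranks the same neurons that Tac1 sorted, so it is a description. Tm2d1 and Tmem56 were detected in all 15 Tac1-high neurons and in 11 and 10 of 11 Tac1-low neurons, with medians of 197 against 75.8 CPM and 208 against 38.6 CPM. Cntnap1, which encodes a contactin-associated protein of the node region, was detected in 14 of 15 and 3 of 11. Plekhh3 overlaps Cntnap1 and Gm9954 overlaps Nwd2.

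The same differences were then read in 33 neurons with Prdm12 below 10 CPM that the choice had left out for having fewer than 5000 genes. Of these, 13 had Tac1 at 100 CPM or more, 14 below 10 CPM and 6 between. Their nodose type rests on Prdm12 alone and is less sure. Hoxb5 differed by 2.55 between their Tac1-high and Tac1-low classes. AM086 (Tac1-high) had Prdm12 at 9.13 and P2rx2 at 0.503 CPM. AM244 (Tac1-low) had the neuronal gene Stmn2 at 76.7 and the satellite glia gene Glul at 3190 CPM. The few-gene neurons had a median of 3525 and 3159 genes in the 2 Tac1 classes, and 59.5% of the 10079 counted genes lay above 0 there, with a median of 0.09. Of the 24 genes higher by the level rule 23 lay above 0 in these neurons, with a median of 1.38, and 7 of them again reached 2. Tmem233 differed by 3.13 (10 of 13 neurons against 2 of 14), S100a6 by 2.67, P2ry1 by 2.46, Prkcb by 2.33, Gm765 by 1.80, Ntrk3 by 1.77 (6 of 13 against 1 of 14) and Piezo2 by 1.37 (6 of 13 against 3 of 14). Ank1, at -0.11, was the only one below 0. Within block 3, with 5 and 13 neurons, all 24 lay above 0, with a median of 1.497 beside 0.00 for all counted genes. Over all few-gene neurons 11 of 12 sodium channel genes lay above 0 as well (median 1.02). So did 15 of 16 genes of peptide processing and dense-core vesicles (0.885) and 16 of 17 GABA, glycine and glutamate receptor genes (0.30). Of pan-neuronal genes 6 of 10 did, and of injury genes 1 of 10. Ntrk2 differed by 1.90 there and by -0.20 in the compared neurons. A difference above 0 was therefore not particular to the 24 genes. Of the 13 genes higher by both rules, the few-gene Tac1-high neurons had a median of 3 (0 to 11) at 10 CPM or more. The few-gene Tac1-low neurons had a median of 1 (0 to 7). Of all counted genes these classes had medians of 31.65% and 29.7% at that level.

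The genes lower in Tac1-high neurons did not keep their direction in the few-gene neurons. Of 6 by the level rule 4 lay above 0 and 2 below, with a median of 0.39. Celf6 differed by -0.03 (7 of 13 against 8 of 14), Htr3a by 0.91 (8 of 13 against 8 of 14) and Cartpt by 1.65 (9 of 13 against 3 of 14). Within block 3 of these neurons 4 of the 6 lay below 0, among them Htr3a at -1.64 and Celf6 at -0.78. Of the 86 genes by the share rule 60 lay above 0 (69.8%, beside 59.5% of all counted genes), with a median of 0.23. Calca, detected in 8 of 13 against 2 of 14 few-gene neurons, differed by 2.77 there and by -0.76 in the compared neurons.

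**Figure D5:**
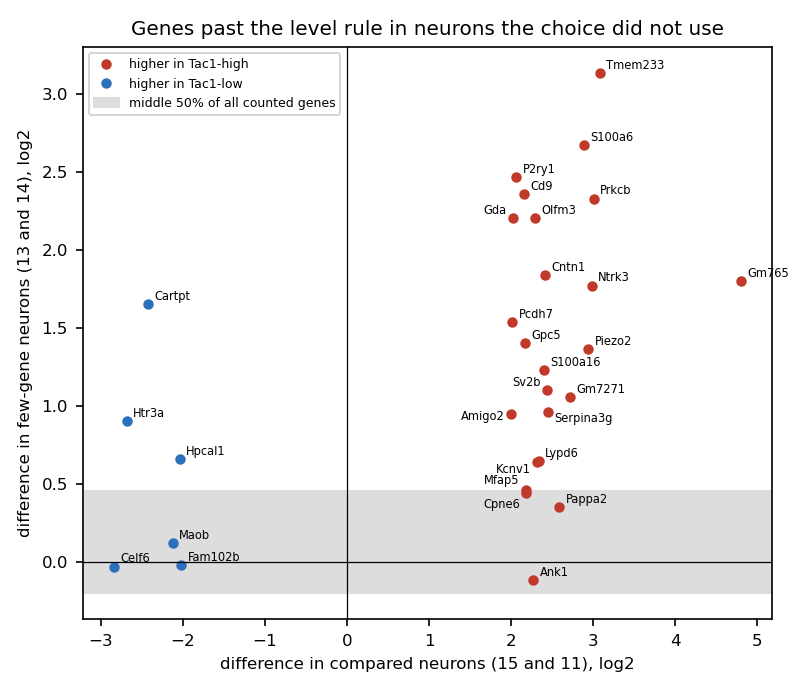
Level difference, Tac1-high minus Tac1-low, of the 30 genes past the level rule in the 26 compared neurons (x) and in the 13 and 14 few-gene neurons (y), both in log2 units, with 1 point per gene. The grey band holds the middle 50% of all counted genes (-0.20 to 0.45); 23 of the 24 red points lie above 0, and the 6 blue points lie on both sides of it.

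The 7 neurons with Prdm12 at 10 CPM or more, which the choice had left out, carried several of these genes whatever their Tac1. Their Tac1 stood at 1.47, 1.98, 2.00, 4.11, 172, 189 and 7059 CPM. Piezo2, Prkcb, S100a6 and Sv2b were detected in 7 of 7, Celf6 in 1 of 7 and P2rx2 in 0 of 7. Of the 13 genes higher by both rules these neurons had a median of 7 (5 to 9) at 10 CPM or more, between the Tac1-high and the Tac1-low nodose-type neurons. Htr3a and Piezo2 were detected together in 5 of these 7 neurons, in 1 of the 15 Tac1-high neurons (AM272) and in 0 of the 11 Tac1-low neurons. They were also together in 2 of the 6 neurons between (AM018 and AM020). In the few-gene neurons they were together in 4 of 13 Tac1-high, 2 of 14 Tac1-low and 2 of 6 between, so the pair was not particular to Prdm12 neurons.

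Single neurons moved the counts of genes. All 30 genes past the level rule kept their sign without any 1 of the 26 neurons. They were chosen for a difference of at least 2 in these neurons, which left little room for a change of sign, so this is a description. Without AM291, 32 genes were higher and 9 lower by the level rule, and Piezo2, Ntrk3, Gm765 and Celf6 differed by 3.18, 3.14, 5.18 and -3.16. Without AM022, the Tac1-low neuron with 7 of the 13 genes, 137 genes were higher by the share rule and 10 lower by the level rule, and Sv2b was detected in no other Tac1-low neuron. Within block 3, with 8 Tac1-high and 9 Tac1-low neurons, 75 genes were higher and 102 lower by the share rule, against 86 and 14 in all neurons, so the split of that rule by direction turned. All 24 higher genes by the level rule lay above 0 and all 6 lower genes below 0 within block 3, with medians of 2.21 and -2.44. The block 3 neurons were among those that chose these genes, so their signs are a description too.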

How the data were processed

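The deposited table holds raw read counts of 50686 genes in 84 single-neuron libraries, made by the authors with featureCounts per the submitters' processing notes. The sources used here do not give the aligner, genome build, annotation or strand setting. They mention no molecular identifiers, so 1 transcript can be counted several times after amplification. GENCODE M21 (GRCm38) supplied symbols for 50376 identifiers, and the coordinates. CPM were computed from each neuron's total. Of the 84 neurons 12 were left out for depth. A count of 102.7 corresponds to 10 CPM in the shallowest compared neuron (10274511 counts).

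Neurons are separate samples of 1 label group with no animal named, so no test was run; the spread is over neurons. Classes were compared by the share of neurons at 10 CPM or more and by mean log2(CPM + 10), with rules of 50 points and of 2, over genes at 10 CPM or more in 5 compared neurons. No 2 compared neurons had identical counts (highest correlation 0.87). Named genes were Tac1, all tachykinin, nodose and jugular genes, members of 38 gene lists past either rule or else the 2 most widely detected of a list, up to 15 other genes per direction past both rules, and the 10 most like Tac1; others are marked. Genes past the level rule alone and outside the lists were named after their values were seen. The neurons, rules and lists were chosen with earlier results of these data known. The computation was tested on simulated data. Alternatives changed the detection limit, size rules, pseudocount, filter, scaling (TMM factors, edgeR 4.0.16 in R 4.3.3), depth, class limits and identifier blocks. Python 3.11.15, numpy 2.4.6, pandas 2.3.3, scipy 1.17.1 and matplotlib 3.10.9 were used.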

Additional observations from a re-analysis of the deposited data

How the results depend on the processing

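The 4 counts of genes (share rule 86 higher and 14 lower; level rule 24 higher and 6 lower) depended on limits and class sizes, and the cause was not tested unless the alternative itself sets it. Under looser size rules (40 points, 1.5) they were 215, 62, 68 and 21, and under stricter ones (60 points, 3) 23, 1, 3 and 0. A pseudocount of 1 CPM gave 163 and 43 by level, with the median of all genes at 0.15, and one of 50 CPM gave 4 and 0. Tac1-high from 50 CPM gave 3 lower by level, and from 200 CPM 10. Tac1-low below 1 CPM gave 147 higher by share, and below 50 CPM 49 and 3. With 4000 genes or more 34 and 8 passed by share; with 6000, 41 were lower by share and 12 by level; with 7000, 174 and 47 passed by share and 12 were lower by level. Prdm12 at 0 counts gave 47 lower by share, and leaving out block 1 gave 36. Without block 2, 40 were lower by share and 10 by level. Without block 3 the counts were 430, 137, 46 and 19, and Htr3a, S100a6 and Hpcal1 changed sign (0.24, -0.053 and 0.40). Block 3 alone, added after seeing the data, gave 102 lower by share and 11 by level. With detection at 5, 20 or 50 CPM, no filter, TMM factors or equal depth, each count stayed within 1.5 times. Leaving out 1 neuron at a time, also added after seeing the data, gave 67 to 137 and 10 to 35 by share and 20 to 32 and 3 to 10 by level. Neurons that moved a count by over 1.5 times were AM022, AM065, AM219, AM235, AM249, AM283 and AM291 (share, lower: 25, 25, 35, 22, 25, 28 and 23), AM022 (share, higher: 137), and AM022, AM065, AM235, AM257 and AM281 (level, lower: 10, 10, 3, 3 and 3). Of the genes past both rules 86.7% had the same direction in the few-gene neurons, and 100% of the fewer genes left under the stricter size rules or a pseudocount of 50 CPM; without 1 neuron it was 80% to 93.8%. Over 134 named genes and 22 settings 5805 of 5896 share and level differences stayed close to the main one and 88 moved. Close means a level difference within the larger SD over neurons, or a share difference within its 95% interval, and both are wide. A change of sign was looked for only in values past the rule concerned, and 3 of these changed sign. No paired analysis was possible because the labels give 1 group with no shared numbers. With 15 and 11 neurons, 1 neuron moves a share by several points. Thinning each neuron to 10274511 counts gave 85, 15, 24 and 6. The totals reached at most 20063519 and 10 CPM is a count of 102.7 in the shallowest neuron, so thinning could change little. It does not equalise the number of detected genes, whose part was not tested.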
